A study of Oryzias latipes with 18 samples.

Results

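The medaka locus of meis2 was described through the accessible elements that ATAC-seq found around it. ATAC-seq maps open chromatin by the cuts of the Tn5 transposase. The elements were chosen by position, as all those of the deposited list with a midpoint on chr22:7119307-7319306, a window of 200 kb. The window holds a 100 kb centre, chr22:7169307-7269306, with 50 kb on each side. It was selected through the number of elements in this centre, so its density is given as a description with no test. It held 103 of the 149539 elements of the list, 65 of them in the centre, 17 in the lower flank (before meis2) and 21 in the upper flank (beyond it). The libraries came from whole embryos of a cross between the strains d-rR-Tg(olvas-GFP) and Qurt, kept at 28 °C and taken at stages 11, 15, 19, 25, 29, 32, 36, 38 and 40, with 2 replicates per stage and no treatment. All 18 libraries were pooled in the list, so each element has a single value, no stage can be compared with another, and cells of all tissues are mixed.

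MEIS2 is a homeodomain factor of the TALE class, whose homeodomains carry a loop of extra residues. MEIS and PBX proteins, both of this class, bind DNA together and act as partners of HOX proteins. In vertebrates Meis genes are known from the hindbrain, the limb or fin bud, the eye, the neural crest and the heart. Like other developmental regulators, they are known to be flanked by and to contain many non-coding elements, a number of them inside introns. An accessible element marks DNA that was open in some of the cells, at a promoter, an enhancer or another bound site, and the list does not say which.

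The centre held 6.50 elements per 10 kb, against 3.40 in the lower flank, 4.20 in the upper flank and 2.19 over chromosome 22. The centre was chosen on its number of elements and the flanks were added to it, so a denser centre follows from that choice. Elements covered 21.0% of the bases of the centre, 13.3% of both flanks together and 6.74% of the chromosome. In steps of 10 kb the centre held 4 to 8 elements, with a median of 7, and the flanks held 2 to 6, with a median of 3.5. Every bin of the centre reached at least the chromosome's mean level, and the counts of its bins overlapped with those of the flanks. Of 144280 windows of 100 kb that start at an element of the 24 chromosomes, 99.9931% held fewer than 65 elements. The median window held 25, the 99th percentile was 51, and 4 windows held more. When windows that overlap a denser one were left out, 1 window ranked above the centre, with 67 elements at rere on chromosome 7.

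**Figure D1:**
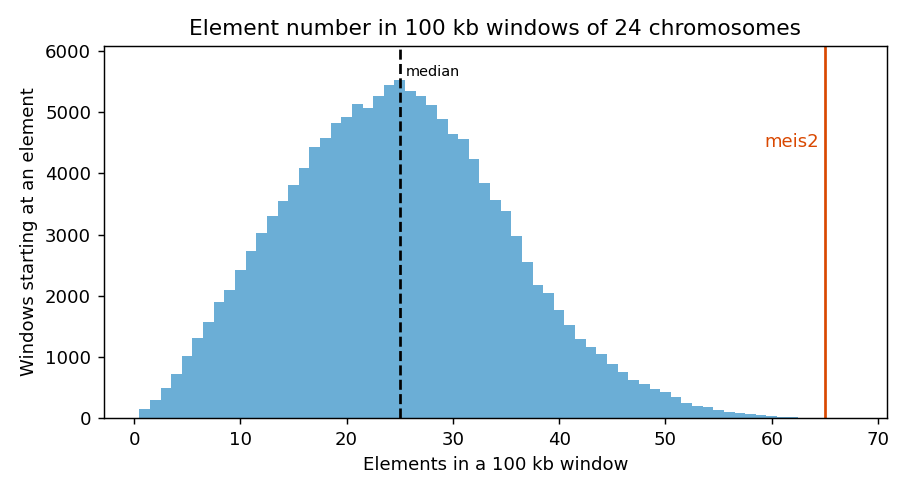
Number of windows (y axis) by the number of elements in 100 kb (x axis), for 144280 overlapping windows that each start at an element. The dashed line marks the median of 25 and the orange line the 65 elements of the window at meis2, at the far right of the distribution.

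4 annotated genes lie in the window, and the elements were spread over 3 of them. The gene models are those of RefSeq for the assembly ASM223467v1, and distances are from the annotated start of meis2, which runs on the forward strand. The long noncoding RNA gene LOC105356905, 5.79 kb long, ends 0.675 kb before this start and held 4 elements. meis2 itself, 75.2 kb long with 8 RefSeq transcripts, held 44. The gene c22h15orf41, the counterpart of human C15orf41 (CDIN1), which is linked to an inherited anaemia of red cell precursors, runs from 85.3 to 140.3 kb and held 24. A second noncoding gene within it, LOC111946850, is 1.31 kb long and held no element. By midpoint, 70 elements (68.0%) lay in gene bodies, 6 (5.83%) within 1 kb of a gene end, 10 within 5 kb of a gene and 17 farther away. Over the chromosomes 51.5% of elements lay in gene bodies and 23.4% at gene ends. Those over 5 kb from a gene made up 16.5% of the window and 17.3% over the chromosomes. The 3 genes that held elements take up 5.79, 75.2 and 55.0 kb of the window's 200 kb. How far this layout sets the shares of the window was not tested. None of the 65 elements of the centre lay over 5 kb from a gene, whereas 16 of the 17 of the lower flank did. The layout of the genes largely sets this contrast, so it describes the locus and not the elements. Genes in the centre are 0.674 and 10.2 kb apart, which leaves almost no base that far from a gene. The 47.6 kb of the window below LOC105356905 hold no gene. Exons and introns were not told apart here.

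**Figure D2:**
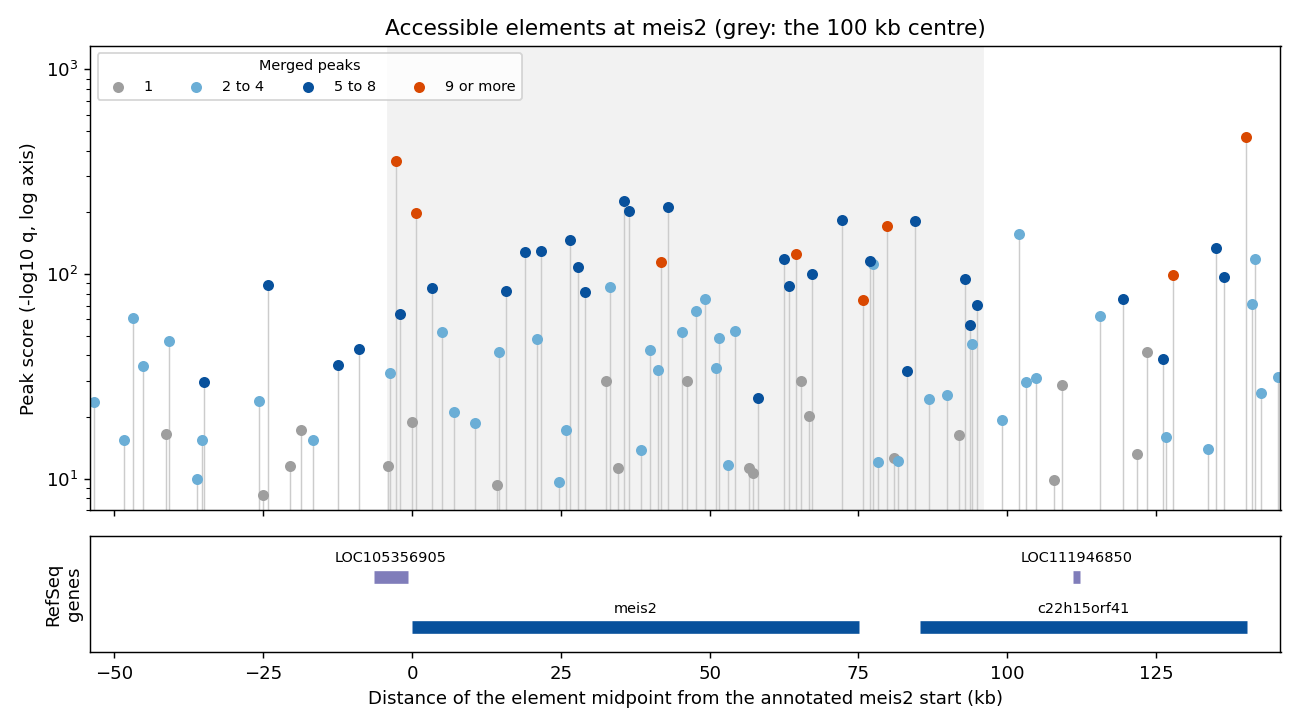
Peak score (y axis, −log10 q, log scale) of the 103 elements by the distance of their midpoint from the annotated meis2 start (x axis, kb), coloured by the number of merged peaks, with the RefSeq genes below. Grey shading marks the 100 kb centre, where 18 of the 22 elements with a score over 100 lie.

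Each element carries a peak score, read as a q value of the peak caller on a −log10 scale, and a whole number, read as the number of peaks merged into it over the stages. The median score was 41.5 in the window and 30.8 in the list. It was 52.2 in the centre, 23.6 in the lower flank and 38.5 in the upper flank, and the ranges of all 3 overlapped, from 9.30 to 358 in the centre, 8.30 to 88.3 in the lower flank and 9.84 to 467 in the upper flank. The stronger elements were concentrated in the centre, where 18 of 65 (27.7%) scored over 100, against 4 of 21 in the upper flank, none of 17 in the lower flank and 15.8% of the list. Within the centre these 18 lay 0.466 to 19.5 kb apart, with a median of 3.34 kb.

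Elements merged from a middle number of peaks took a larger share at meis2 than in the list, and both extremes a smaller one, as a description with no test. The numbers ran from 1 to 10. Of the 103 elements, 20 (19.4%) were made of 1 peak, 75 (72.8%) of 2 to 8 peaks and 8 (7.77%) of 9 or more. The list had 27.7%, 59.8% and 12.5%. The share from 9 or more peaks differed by placement, and the window had few elements at gene ends. At gene ends this share was 50% in the window (3 of 6) and 33.2% over the chromosomes, and in gene bodies 5.71% and 6.28%. Within 5 kb of a gene it was 10% (1 of 10) and 9.02%, and farther away 0% (0 of 17) and 3.89%. The smaller share at meis2 was thus not seen at gene ends or within 5 kb of a gene, and in gene bodies the shares were close. The smaller share over the whole window therefore cannot be told apart from the placement of its elements. In the centre 24 of 65 (36.9%) came from 6 or more peaks, but in the lower flank 2 of 17, beside 30.1% in the list. Score followed the number of peaks in the window as in the list (Spearman's rho across elements 0.80 in both, over 103 and 149539 elements that share the same libraries). At 1 peak the median score was 14.7 at meis2 and 13.6 in the list, and at 9 or more it was 148 and 147. At 5 to 8 peaks it was 91.2 in the window against 59.4 in the list. There it was 104 over 22 elements in the centre and 59.1 over 8 in both flanks together. Taking for each element the list median of its own number of peaks, 63 of 103 (61.2%) scored above it, with 44 of 65 in the centre and 7 of 17 in the lower flank.

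**Figure D3:**
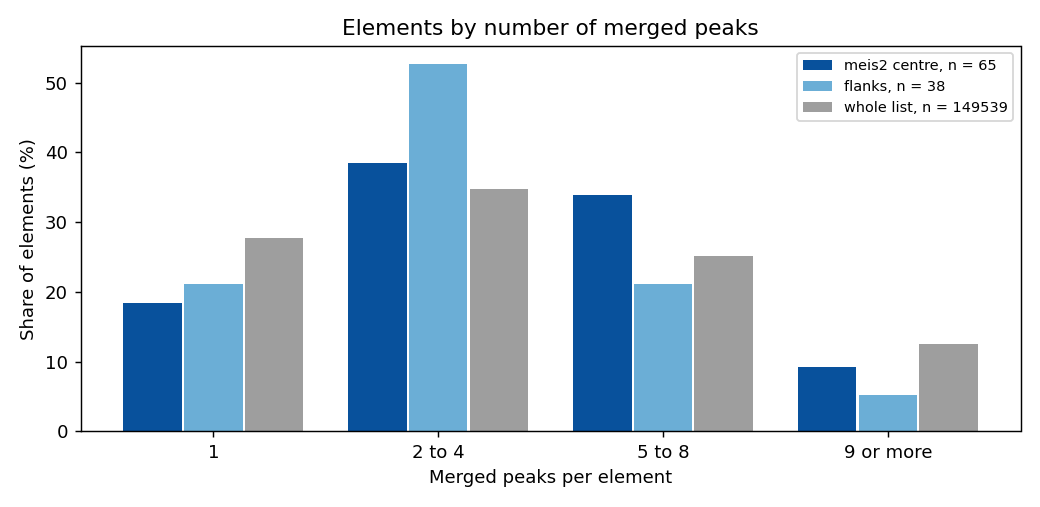
Share of elements (y axis, percent) by the number of merged peaks (x axis) in the centre, both flanks and the whole list. Elements from 9 or more peaks made up 9.23% of the centre, 5.26% of the flanks and 12.5% of the list.

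The elements stood close together, and their median width was slightly above that of the list. The window was chosen on its number of elements, so short gaps and near neighbours follow from that choice. The median gap to the next element was 1122 bp in the window and 899 bp in the centre, against 2395 bp in the list. The median width was 292 bp in the window and 278 bp in the centre, against 255 bp in the list, and widths ranged from 116 to 1057 bp. Beside the list median width of their own number of peaks, 55 of 103 elements (53.4%) were wider. In the centre this held for 32 of 65 (49.2%) and in the lower flank for 12 of 17. The centre as a whole thus had no excess width at equal number of peaks, while in the body of meis2 26 of 44 (59.1%) were wider. The lower flank, with the lowest scores, had the highest median width, 335 bp. Score and width were less closely related than score and number of peaks (Spearman's rho 0.42 across the 103 elements and 0.43 in the list). The rho of score and width was 0.52 in the centre and 0.32 in both flanks together. A neighbour closer than 500 bp was present for 49 of 103 elements (47.6%) and for 34.3% of the list. Joining such neighbours left 76 elements in the window. The longest chain had 4 members, from chr22:7266024-7266523 to chr22:7267965-7268499 inside c22h15orf41, and spanned 2476 bp. The closest pair, 118 bp apart, lay in LOC105356905 (chr22:7169307-7169431 and chr22:7169550-7169770). The farthest, with 8814 bp between them, lay in the lower flank (chr22:7138327-7138622 and chr22:7147437-7147917).

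**Figure D4:**
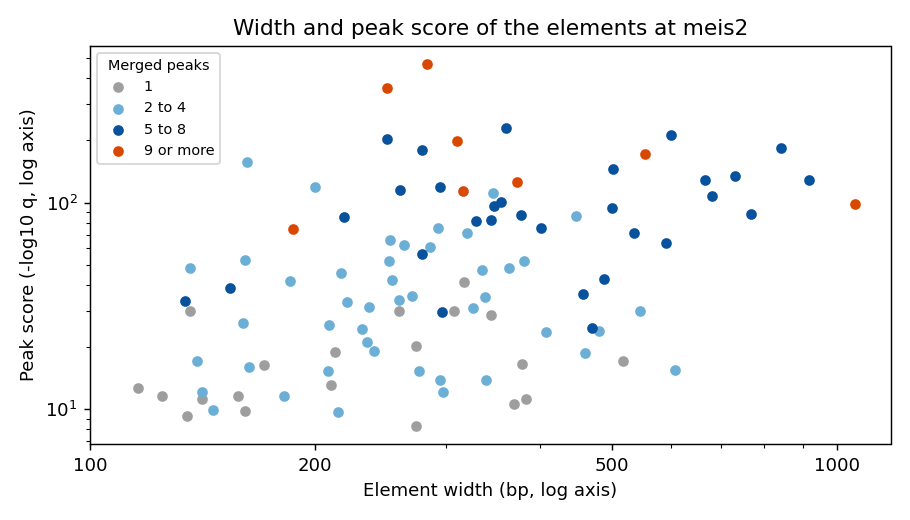
Peak score (y axis, −log10 q, log scale) against width (x axis, bp, log scale) for the 103 elements, coloured by the number of merged peaks. Scores rise with the number of peaks more clearly than with width, and the widest element, of 1057 bp, scores 98.5.

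The lower flank, where 47.6 of the 50 kb hold no gene, held no element inside a gene body, and its scores were the lowest of the window. Its first element, chr22:7119674-7120081, scored 23.6 from 3 peaks. The nearest one outside, chr22:7117894-7118300, scored 69.7 from 2 peaks. The highest score of this flank, 88.3, belonged to chr22:7148826-7149593, 24.2 kb before meis2, which was 768 bp wide and merged from 8 peaks.

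At the start of meis2 the strongest elements lay beside the annotated start and not on it. The element over the start, chr22:7173175-7173387, scored 18.9 and came from 1 peak. Inside the gene, 0.61 kb from the start and 436 bp beyond the weak element, chr22:7173824-7174133 scored 199 from 9 peaks. On the other side, 2.73 kb before the start and within LOC105356905, chr22:7170510-7170759 scored 358 from 9 peaks, the second highest score of the window and higher than 98.2% of the list. The study's own gene models put the start of meis2 11 bp away from that of RefSeq. They also hold a noncoding transcript, IGDB19691, on the reverse strand with its start 0.646 kb before meis2. All 4 elements of LOC105356905 lay inside it, and the element nearest to its start was again the weak one over the start of meis2.

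Along the body of meis2 elements were frequent throughout, and the stronger ones were mostly merged from 5 to 8 peaks. From its start, 4 parts of equal length held 8, 13, 13 and 10 elements, with median scores of 46.9, 86.4, 48.4 and 58.6. Of the 44 elements, 13 scored over 100, 15 came from 5 to 8 peaks, 8 were single-peak elements and 3 came from 9 or more, including the one at the start. The highest score of the body, 228, belonged to chr22:7208850-7209210, 35.7 kb in, which came from 6 peaks. Its neighbour chr22:7209639-7209888, 428 bp away, scored 204, also from 6. Farther along, at 43.0 kb, chr22:7216068-7216667 scored 211 from 7 peaks. These 3 exceeded the element inside the start, although each came from fewer peaks. The widest element of the body, chr22:7191959-7192875 at 19.1 kb, was 917 bp wide and scored 128 from 7 peaks. Near the end of the gene, at 72.3 kb, chr22:7245269-7246110 was 842 bp wide and scored 183 from 7 peaks. The elements from 9 peaks deep in the body were chr22:7214997-7215312 at 41.8 kb, with a score of 114, and chr22:7237630-7238002 at 64.4 kb, with 125. The first of these lay near the start of a second noncoding transcript of the study, IGDB19693, which runs on the reverse strand within meis2 from 40.8 kb. 3 elements had their midpoint within 1 kb of that start. The nearest, 0.417 kb before it, scored 34.0 from 3 peaks.

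Between meis2 and c22h15orf41 the elements were denser than the mean of either gene. This stretch of 10.2 kb held 9 elements, or 8.84 per 10 kb, against means of 5.85 in meis2 and 4.37 in c22h15orf41. These means cover much longer spans. Steps of 10 kb from the meis2 start held 4 to 7 elements inside meis2 and 2 to 6 inside c22h15orf41. Their scores ran from 12.1 to 180 with a median of 74.9, with weak and strong elements side by side. Just past the end of meis2, chr22:7249128-7249314 scored 74.9 from 9 peaks, a low score for that number of peaks (17.9% of list elements from 9 peaks scored lower). At 79.8 kb chr22:7252867-7253419 was merged from 10 peaks, the most in the window, and scored 172. The element before the lower end of c22h15orf41, chr22:7257753-7258030, scored 180 from 8 peaks.

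The highest score of the window belonged to c22h15orf41 and not to meis2. The element chr22:7313395-7313677, 0.151 kb inside the upper end of this gene, scored 467 from 9 peaks, above 99.2% of the list. A weaker one outside that end, chr22:7314402-7314721, scored 71.3 from 4 peaks. In the body, the widest element of the window, chr22:7300796-7301852, came from 9 peaks and scored 98.5, and chr22:7308126-7308856 was 731 bp wide and scored 134. An unusual element at 101.9 kb, chr22:7275215-7275376, was 162 bp wide and scored 157 from 3 peaks. Of the 80602 list elements from 3 peaks or fewer, 0.292% scored as high. The last element inside the window, chr22:7318838-7319073, scored 31.3 from 2 peaks, and the first outside, chr22:7319478-7320139, scored 179 from 10. On the other side, 49 elements lay in the 126 kb between the coding gene before meis2, spred1, and the start of meis2 (3.89 per 10 kb), of which the lower flank and LOC105356905 are part.

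Among TALE homeobox genes meis2 was most closely matched by meis1 in length and in number of elements. Of 19 symbols listed, 18 were found, as 22 genes. meis1, on chromosome 15, is 71.6 kb long in RefSeq and held 41 elements, or 5.73 per 10 kb, and meis2 held 44, or 5.85 per 10 kb. Elements covered 20.1% of either gene. Their median scores were 49.3 in meis1 and 52.2 in meis2, and 10 and 13 elements scored over 100. Single-peak elements numbered 11 in meis1 and 8 in meis2, and those from 9 or more peaks 1 and 3. With the study's gene models, in which meis1 is 118 kb long, meis1 held 61 elements and meis2 still 44. The order of the 2 genes therefore depends on the gene model used.

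The starts of the meis genes differed in the element that covered them. At meis1 the element over the RefSeq start, chr15:11551767-11552351, scored 274 from 9 peaks, and chr15:11552447-11552695, 0.489 kb upstream, scored 218 from 9. The second gene annotated as meis2, LOC101171546 on chromosome 24, is 14.2 kb long and held 7 elements with a median score of 25.0. The one over its start scored 132 from 8 peaks. meis3 (LOC101154966, chromosome 13), 10.9 kb long, held 3 elements, each from 9 or more peaks, and the one over its RefSeq start scored 50.2 from 11. It did not cover the start of meis3 in the study's gene models, from which its midpoint lay 0.46 kb away. Only at meis2 on chromosome 22 did the element over the RefSeq start come from a single peak. It lies 436 bp from the element inside the gene that came from 9 peaks. Joining neighbours closer than 500 bp makes them 1 element over the start, with a score of 199 and 10 peaks. The contrast therefore depends on close neighbours being kept apart.

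In RefSeq models the other TALE genes held fewer elements in their bodies than meis1 or meis2, but not all had fewer per 10 kb. The genes pbx3, pbx4 (LOC101159440) and pbx2 (LOC101172525), which encode partners of MEIS proteins, held 26, 16 and 3, pknox2 and pknox1, which encode close relatives of MEIS, held 24 and 2, and mkx, a tendon regulator in mammals, held 10. The irx genes, regulators of neural and heart patterning, are 3.11 to 7.70 kb long and held 1 to 6 in their bodies. tgif1 (LOC101173585), a repressor, held 4. Some of these short genes were denser than meis2 with its 5.85 per 10 kb. They were irx2 with 11.98, tgif1 with 8.87, the irx1 genes with 8.83 and 8.61, and irx3 with 6.08. These densities rest on 2 to 6 elements per gene. The remaining TALE genes were less dense than both meis1 and meis2. Outside the gene, within 50 kb on both sides, meis2 had 47 elements, close to tgif1 with 48 and irx5 on chromosome 3 with 47, and above meis1 with 36 and the other irx5 gene (LOC101169695) with 22. The median of 22058 coding genes was 22, and 99.3% had fewer than 47. The 47 at meis2 lie in the window that was chosen on its number of elements, so this rank depends in part on that choice. In their surroundings, then, meis2, tgif1 and irx5 on chromosome 3 held nearly the same number, while the latter 2 genes are under 5 kb long, with 4 elements in the body of tgif1 and 2 in that of irx5.

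**Figure D5:**
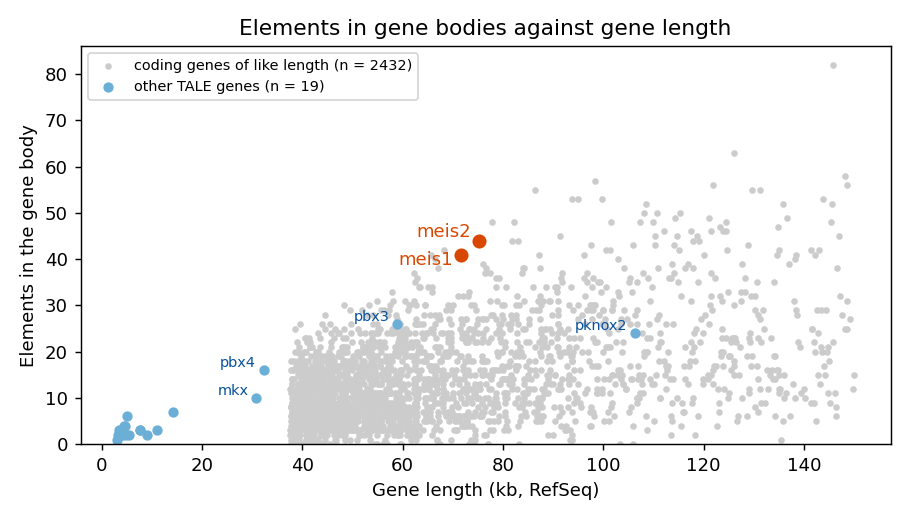
Elements in the gene body (y axis) against gene length in RefSeq (x axis, kb) for coding genes 0.5 to 2 times as long as meis2 (grey) and the TALE genes reported here (blue, meis1 and meis2 in orange). meis2 with 44 and meis1 with 41 lie near the upper border of genes of their length. The window at meis2 was chosen on its number of elements.

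Because the window was chosen on its number of elements, the rank of meis2 among genes is not independent of that choice. Its body holds 44 of the 65 elements of the centre. Beside coding genes 0.5 to 2 times as long, meis2 lay near the top. Of 2432 such genes the median held 12 elements, with quartiles of 7 and 20, and 41 held more than meis2. Per 10 kb the median was 1.97, and 12 genes exceeded the 5.85 of meis2. Among the 152 of these with a family from the study's TF table the median was higher, 21 elements or 3.43 per 10 kb. Of the 152, 13 held more in number and 7 more per 10 kb. The TF genes gli3, with 52 elements, and nfia, with 46, had no family label and are not among the 152. Closest in number within the 152 were nr6a1 (a nuclear receptor) and tcf7l2 (an effector of Wnt signalling), with 44 each in 119 and 83.0 kb. Then came tox2 and znf521, with 43 each in 110 and 97.6 kb. All 4 are longer than meis2. The next of the 152 in number, nfib (a TF gene named after its values were seen), held 42 in 68.3 kb. It was thus shorter and denser than meis2, with 6.15 per 10 kb, whereas nfia, outside the 152, held its 46 in 124 kb.

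Elements from many peaks took a larger share in the windows at bcor and irf2bp2, which were nearly as dense, and at irf2bp2 the elements also lay elsewhere. Each of these windows was taken as the 100 kb with the most elements that overlaps the gene, so its density follows from that choice. At bcor, the gene of a corepressor, on chr21:8686919-8786918, 62 elements had a median score of 57.6 and a median gap of 504 bp, and 53 lay in gene bodies, as did 54 of 65 at meis2. At irf2bp2, another corepressor gene, on chr15:28099757-28199756, 63 elements had a median score of 53.0, and 41 lay over 5 kb from any gene. The spans of the middle scores overlapped in the 3 windows, with lower and upper quartiles of 21.1 and 108 at meis2, 23.5 and 118 at bcor and 17.9 and 96.2 at irf2bp2. Elements from 9 or more peaks made up 9.23% at meis2 (6 of 65), 21.0% at bcor (13 of 62) and 17.5% at irf2bp2 (11 of 63). Gene ends held 4 elements at meis2, 2 at bcor and 7 at irf2bp2. These differences between single loci have no replicate and were not tested.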

How the data were processed

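The authors trimmed the ATAC-seq reads of 18 libraries with Trimmomatic 0.36, used Bowtie2 2.3.4.1 for mapping, pooled both replicates of a stage, identified peaks with MACS2 2.1.2, kept those over 7 in −log q and merged them over stages. Picard, bedtools and deepTools are also in the submitters' processing notes. The deposited score is read as a −log10 q value. How scores of merged peaks were combined and the name of the genome build are not given in the sources used here, and the second number is read as merged peaks from its values, 1 to 29. The depth per library is unknown from the list, and an element is listed only above the limit of 7.

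Positions count from 1. TF positions of the study, on the same genome, shared an end with a RefSeq gene of ASM223467v1 within 50 bp for 58.0% of 1532 genes, and for 2.48% after a shift of 50 kb, and 80.0% of TF starts had an element midpoint within 500 bp, against 20.3% after the shift. RefSeq gave no strand, so strands came from the study's gene tables. Elements were placed by midpoint, at a gene end (1 kb), in a gene body, within 5 kb or farther. Gaps run to the next element. Elements of 1 locus are not replicates, so no test was made, and no replicate spread exists in the list. The members, the TALE list and the rules were chosen with earlier results of these data known. Genes named were those in the window, the TALE list and, among genes of like length with a TF family label, those with the closest count. The genes gli3 and nfia, without such a label, were named after their values were seen. Elements named were those at gene ends, the 10 with the highest score, the 5 widest, the 5 with the most peaks, the extreme neighbour pairs and those at the window's limits. Elements from 9 peaks, the longest chain and those nearest the starts of noncoding transcripts and other meis genes were named after their values were seen. Alternatives changed the limits on score, peaks and width, the windows, the width of gene ends and the gene models. 1 gene of the TALE list is not reported here. Sequence features were not analysed here. Python 3.11.15, NumPy 2.4.6, SciPy 1.17.1, pandas 2.3.3 and Matplotlib 3.10.9 were used, and the code was tested on simulated data.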

Additional observations from a re-analysis of the deposited data

How the results depend on the processing

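No paired analysis was possible because the list pools all libraries, and for the same reason no replicate could be left out. Of 50 alternatives over 14 results, 36 moved the value little, meaning within 1.5 times for numbers of elements and within the 95% interval of the value, for counting error only, for shares and medians. The share of windows with fewer elements than the centre, both counted in the same set of elements, was 99.9993% with scores of at least 10, 99.9764% of at least 20, 99.9981% with at least 2 merged peaks, 99.9854% after joining elements closer than 500 bp, and 99.9534% with elements of at least the median width. Other windows were set beside their own count. Of windows at multiples of 100 kb, 99.8911% held fewer than the 57 of the fullest one that overlaps the centre. Of windows of 50 kb 99.8635% held fewer than the 34 around the same midpoint, and of windows of 200 kb 99.8905% fewer than 103. All these shares lay outside the 95% interval of the main value, 99.9872% to 99.9962%, so this result moved in every alternative. That interval covers counting error only and takes no account of the overlap between windows. Elements of at least the median width numbered 64 in the window and 38 in the centre. With at least 2 merged peaks the median width was 1.02 times that of the list, against 1.15 for all elements, and the median number of peaks 0.80 times. Gene ends of 500 bp held 1.94% of the elements, 2 in number, and gene ends of 2 kb held 10.7%, 11 in number, against 5.83% at 1 kb. With the study's gene models 1 TALE gene, meis1, held more elements than meis2. The causes were not tested, beyond fewer elements in the sets with limits. The planned sequence features were not run. With no value per stage and an unknown depth, when the elements were open and whether weaker ones were missed cannot be said.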
